A study of Homo sapiens with 10 samples.

Results

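Autophagy delivers cytoplasmic cargo to lysosomes, and the genes described here are 41 that encode its core machinery and its cargo receptors, out of 58395 genes in the count files. They were a list of symbols, proposed when it was known that SQSTM1 and GABARAPL1 stood out in cells with siGGGGGC at 48 h. By role the list held 5 cargo receptors, 5 genes of the ATG8 family, 5 of the ULK1 kinase complex, 5 of the phosphatidylinositol 3-kinase complex, 10 of the conjugation machinery, 7 that supply or shape membrane, 2 for fusion with lysosomes and 2 transcription factors. All 41 symbols were found in the files, and 40 had enough counts to be tested. MAP1LC3A was the exception, with raw counts between 0 and 4 in every library.

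RNA was sequenced from HeyA8, an established human ovarian cancer cell line, after transfection of 10 nM of an siRNA duplex. The 5 groups of 2 libraries were the non-targeting duplex siNT1 at 24 h, siGGGGGC at 24 h (siMxy in the titles), siNT1 at 48 h, siGGCAGU at 48 h (si34a in the titles) and siGGGGGC at 48 h. The duplexes siGGGGGC and siGGCAGU are named after the 6mer seed of their guide strand, the stretch by which a guide, like a microRNA, finds messenger RNAs. The methods state a chemically modified passenger strand for both, which keeps it from acting as a guide, and the labels mark the control as siNT1 S2'OM. The duplicates were wells of a transfection of 1 cell line, so p-values measure the spread between wells and libraries, and untransfected cells were not analysed here.

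In autophagy, the ULK1 kinase complex receives starvation and growth signals and switches on a lipid kinase complex built around PIK3C3 and BECN1. Membrane proteins and lipid carriers then expand a cup-shaped membrane, onto which a ubiquitin-like conjugation system fixes proteins of the ATG8 family. Receptors such as SQSTM1 (p62) hold ubiquitin-marked cargo with one end and ATG8 proteins with the other, and are themselves degraded with the cargo, so transcript levels alone do not measure autophagic flux.

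Total counts per library ranged from 19781445 to 42428986. Values per library below are counts normalized by TMM library size, fold changes are log2 ± SE from edgeR, and a gene counts as called at an adjusted p below 0.05. As a check of the labels only, the 10 targets of siGGGGGC that the study names were all called lower with siGGGGGC at 24 h. The study picked them for their fall in its own HeyA8 RNA sequencing at 24 h, so this is no independent result. The cells had KRT7, KRT8, KRT18, VIM, CDH2, FN1 and AXL at over 1000 normalized counts in every library. By contrast, CDH1 reached at most 19.3, MUC16 31.0, EPCAM 40.6 and WT1 109.4, and PAX8 ranged from 87.0 to 908.9. Of 5 markers of blood and endothelium, PTPRC, CD3E and HBB stayed below 6 normalized counts, PECAM1 below 20 and CDH5 at 40.0 or less. Of the 6 epithelial and ovarian markers tested, 5 were called lower with siGGGGGC at 48 h, beside 27.5% of all genes tested. So were 4 of 4 mesenchymal markers. With siGGGGGC at 24 h, 2 of the 6 were called higher and 1 lower, and 3 of the 4 lower. All genes tested then had 10.6% higher and 8.32% lower. The part of these markers in the results on autophagy genes was not tested. In bulk RNA, a change in the mix of cells and a change in RNA per cell cannot be told apart.

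Seed matches are shown first because they mark the members whose longest annotated 3′ UTR holds a 6mer complementary to either seed. Which 3′ UTR these cells use was not examined, and other parts of the transcripts were not searched. siGGCAGU shares its 6mer seed with the microRNA miR-34a-5p, whose mature sequence in RefSeq (GRCh38.p14, chr1:9151735-9151756, minus strand) is given with bases 2 to 8 in capitals. The last capital, base 8, lies outside the shared 6mer GGCAGU.
hsa-miR-34a-5p: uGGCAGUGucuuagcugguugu
The reverse complement of GGGGGC, written GCCCCC in DNA letters, was present in the longest annotated 3′ UTR of 16 of 40 tested members (40.0%), beside 31.6% of 12405 tested genes with a 3′ UTR. ACTGCC, the reverse complement of GGCAGU, was present in 18 of 40 members (45.0%), beside 36.6% of those genes. SQSTM1, GABARAPL1, OPTN and RB1CC1, which are described below as higher, held neither word there. The windows printed below are hg38 sequence from GENCODE release 44, 5′ to 3′ on the transcript's strand, with the match in capitals. Coordinates in each label span the whole window, not the match alone. They were chosen for members called lower with an siRNA whose match they hold, and STX17 was added as a member with 2 matches that was called higher.
CALCOCO2, match to GGGGGC at chr17:48863547-48863572, plus strand: taatttctcaGCCCCCaaagaagcat
CALCOCO2, match to GGCAGU at chr17:48863343-48863368, plus strand: aagttgtcccACTGCCattcaaagtc
ATG9A, match to GGCAGU at chr2:219220146-219220171, minus strand: cagccccagtACTGCCacctttacac
ATG4B, match to GGCAGU at chr2:241672437-241672462, plus strand: ttggtgtcagACTGCCcagctcagag
ATG4B, match to GGCAGU at chr2:241672521-241672546, plus strand: ttctctcgacACTGCCagccccgtgt
ATG2A, match to GGCAGU at chr11:64894739-64894764, minus strand: gagaaaggacACTGCCcctcccccga
ATG2A, match to GGCAGU at chr11:64894546-64894569, minus strand: agtggaataaACTGCCcaccgcca
STX17, match to GGCAGU at chr9:99968902-99968927, plus strand: aagtttgaagACTGCCaaggagcaga
STX17, match to GGCAGU at chr9:99973715-99973740, plus strand: tccttatatcACTGCCacaagaatta
These matches lie in exonic 3′ UTR. A match is a description of the letters and not a measured binding site.

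The comparison of siGGGGGC with siNT1 at 24 h asked which autophagy genes had moved early, in libraries other than those in which SQSTM1 and GABARAPL1 had been seen to stand out. SQSTM1 and GABARAPL1 were already higher at that time, together with ATG101, ATG4B, WIPI2 and GABARAPL2, while the receptor CALCOCO2 fell. These were 6 members called higher of 40 tested, beside 10.6% of the 16905 genes tested, and 2 called lower, beside 8.32%. The median log2 fold change was 0.154 over the members and 0.003 over all genes tested. When only the 4 libraries compared were fitted, 12 members were called higher. The share of all genes called in that fit is not given, and the 10.6% does not apply to it.

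SQSTM1 (p62; chr5:179806398-179838078, hg38), the receptor for ubiquitin-marked cargo that also holds KEAP1, had 2762 and 3104 normalized counts in the siNT1 libraries at 24 h. The siGGGGGC libraries at 24 h had 7048 and 8008. Both treated libraries lay above both controls, a 2.57-fold difference (log2 1.36 ± 0.104, adjusted p = 5.47e-07). Of the annotated exon bases of SQSTM1, 22.4% are shared with MGAT4B and MRNIP on the other strand, and the strand setting of the counting was not given in the sources used here, so reads from these bases could not be assigned with certainty. The same holds for 20.8% of ATG14, 19.2% of ATG101, 18.1% of ATG7, 17.1% of BECN1, 14.7% of ATG4D, 9.22% of TECPR1 and 8.12% of GABARAPL1. GABARAPL1 (chr12:10212458-10223128), an ATG8 protein, had 326 and 349.6 normalized counts with siNT1 and 641 and 605 with siGGGGGC at 24 h. The groups did not overlap, and it rose 1.85-fold (log2 0.88 ± 0.133, adjusted p = 0.000284).

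ATG101, which steadies ATG13 within the ULK1 complex, was measured at 276 and 369 with siNT1 and at 572 and 512 with siGGGGGC at 24 h (log2 0.75 ± 0.140, adjusted p = 0.00154). Smaller rises were called for ATG4B, a protease that primes ATG8 proteins and frees them from membranes (log2 0.47 ± 0.091, adjusted p = 0.00209), for WIPI2, which reads the lipid made by PIK3C3 and recruits ATG16L1 (log2 0.40 ± 0.0824, adjusted p = 0.00322), and for GABARAPL2 (log2 0.30 ± 0.0957, adjusted p = 0.0372), which DESeq2 did not call (adjusted p = 0.0756). CALCOCO2 (NDP52; chr17:48831018-48866522), a receptor for invading bacteria and damaged mitochondria, had 1144 and 1181 normalized counts in siNT1 and 728 and 848 in siGGGGGC libraries. Its log2 fold change was -0.56 ± 0.0948, adjusted p = 0.000727, and both treated libraries were below both controls. VMP1, a membrane protein of the endoplasmic reticulum needed to form autophagosomes, had 7589.5 and 7581 with siNT1 and 6532 and 5976 with siGGGGGC. It was called lower by a narrow margin (log2 -0.28 ± 0.0932, adjusted p = 0.0488), and the call was lost when any 1 of the 4 libraries compared was left out, with a log2 fold change then between -0.34 and -0.22.

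No member of the phosphatidylinositol 3-kinase complex passed edgeR's adjusted threshold at 24 h, and DESeq2 also called 0. At an unadjusted p under 0.05, 3 of the 5 were higher and 1 lower, beside 2868 and 2484 of the 16905 genes tested. The largest difference was that of UVRAG (log2 0.33 ± 0.120, adjusted p = 0.0654). ATG9A, the scramblase of the vesicles that seed the new membrane, had 181 and 158 normalized counts with siNT1 and 134 and 157 with siGGGGGC at 24 h, which did not pass (log2 -0.22 ± 0.151, adjusted p = 0.345).

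**Figure D1:**
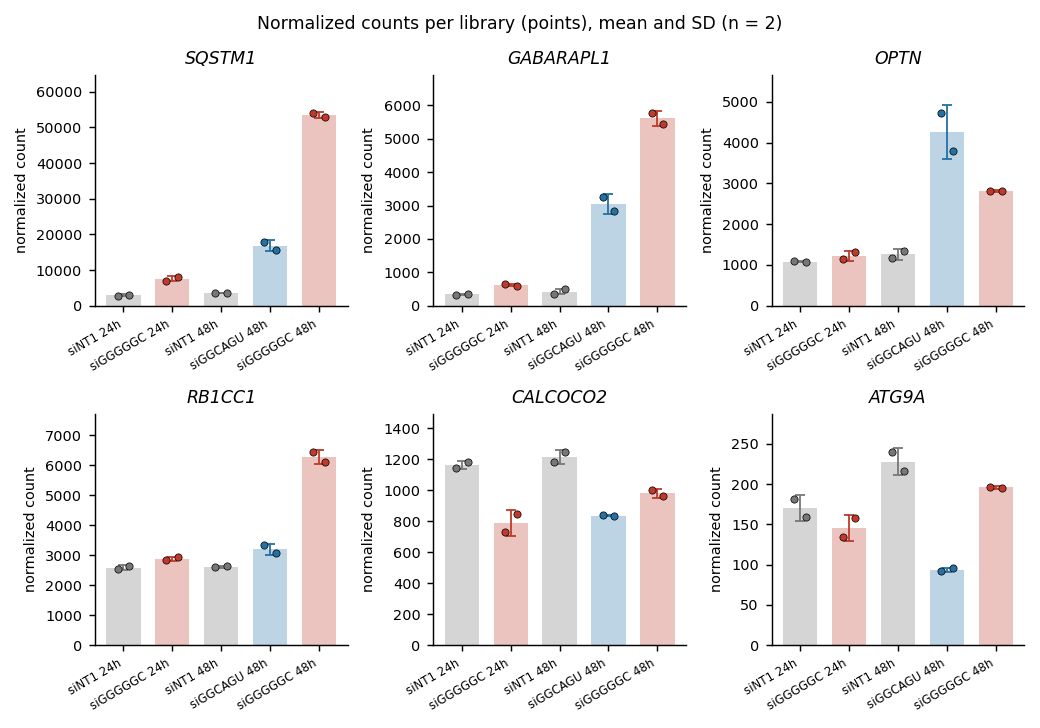
Normalized counts of 6 autophagy genes in each library (points), with the mean (bar) and SD (error bar, n = 2) per group, on linear axes that start at 0. SQSTM1, GABARAPL1 and RB1CC1 were highest in the siGGGGGC libraries at 48 h, OPTN was highest and ATG9A lowest with siGGCAGU, and CALCOCO2 was below its time-matched siNT1 libraries in all 6 treated libraries.

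The members with siGGGGGC at 48 h are given as a description, since this comparison was in view when they were chosen. Counts of genes past the call threshold stand beside those of all genes, no p is given and nothing is read from these counts. SQSTM1 had 3618 and 3638 normalized counts with siNT1 and 54038 and 52852 with siGGGGGC at 48 h, 14.7-fold higher (log2 3.88 ± 0.113). GABARAPL1 had 366 and 486 with siNT1 and 5773 and 5454 with siGGGGGC, 13.1-fold higher (log2 3.71 ± 0.126). In both genes the treated libraries stood far above the controls and close to each other. Of 40 members tested, 26 were called higher, beside 27.8% of all genes tested, and 1 was called lower, beside 27.5%. Past 2-fold there were 7 higher, beside 10.5%, and 0 lower, beside 11.0% (DESeq2 called 1 member lower at any size, and 2 were lower at an unadjusted p under 0.05). The median log2 fold change was 0.470 over the members and -0.011 over all genes tested.

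Levels were compared between genes per length. RPKM was computed here from normalized counts and the length of all annotated exons of a gene, merged over its transcripts. That length can exceed the length of the expressed transcript, so the order between genes is approximate. In RPKM, siNT1 cells at 48 h had VMP1 at 30.8 ± 3.26 (SD, n = 2), SQSTM1 at 18.5 ± 0.0690 and RB1CC1 at 13.2 ± 0.162. GABARAPL1 stood at 4.03 ± 0.808, near the members' median of 3.98 RPKM. With siGGGGGC at 48 h SQSTM1 led with 272 ± 4.27 RPKM, followed by GABARAPL1 with 53.1 ± 2.13, VMP1 with 35.6 ± 0.929 and RB1CC1 with 31.6 ± 1.15. With siGGCAGU at 48 h the order was SQSTM1 with 85.6 ± 7.74, VMP1 with 41.3 ± 0.239, OPTN with 31.7 ± 4.97 and GABARAPL1 with 28.9 ± 2.84 RPKM. OPTN and GABARAPL1 were within their spread of each other in that order.

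Among the other cargo receptors, OPTN, TAX1BP1 and NBR1 were also higher with siGGGGGC at 48 h and CALCOCO2 was lower. OPTN, a receptor phosphorylated by TBK1, had 1166 and 1348 normalized counts with siNT1 and 2823 and 2802 with siGGGGGC (log2 1.16 ± 0.112). For TAX1BP1, which clears protein aggregates, the log2 fold change was 0.82 ± 0.0827, and for NBR1, a partner of SQSTM1, it was 0.31 ± 0.0833. CALCOCO2 had 1181 and 1243 with siNT1 and 999 and 959.9 with siGGGGGC (log2 -0.31 ± 0.0907), a call lost without replicate 2 of siGGGGGC at 48 h (log2 -0.28).

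Within the ATG8 family, GABARAPL2 (log2 1.02 ± 0.0899) and MAP1LC3B (log2 0.54 ± 0.161) were higher by much less than GABARAPL1. GABARAP itself had between 5.72 and 20.8 normalized counts in all 10 libraries and was called in none of the comparisons. That level is uncertain, since 48.2% of its annotated exon bases are shared with other genes, mostly an overlapping gene on the same strand. Of the ULK1 complex, RB1CC1 (FIP200), its scaffold, had 2595 and 2641 normalized counts with siNT1 and 6434 and 6112 with siGGGGGC at 48 h (log2 1.26 ± 0.0835). ATG101 (log2 0.92 ± 0.130), ULK1 (log2 0.85 ± 0.274) and ULK2 (log2 1.01 ± 0.261) were higher too, both kinases at fewer than 100 normalized counts per library. ATG13, the regulatory subunit, went the other way with 884 and 936 in siNT1 and 763 and 807 in siGGGGGC libraries and was not called (log2 -0.21 ± 0.0927).

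In the lipid kinase complex the catalytic subunit PIK3C3 (log2 0.69 ± 0.125), its regulatory kinase PIK3R4 (log2 0.56 ± 0.081), UVRAG (log2 0.48 ± 0.113) and ATG14 (log2 0.33 ± 0.088) were called higher, while BECN1 was at log2 -0.01 ± 0.094. Of 10 genes for conjugation, 6 were called higher, beside 27.8% of all genes tested. Among them were ATG16L1 (log2 0.75 ± 0.120), ATG12 (log2 0.65 ± 0.082) and ATG5 (log2 0.46 ± 0.101), whose products form the complex that places ATG8 proteins on the membrane. STX17, the syntaxin by which a closed autophagosome fuses with a lysosome, was 2.18-fold higher (log2 1.13 ± 0.119), with 189.8 and 187 normalized counts in siNT1 and 396 and 428 in siGGGGGC libraries. TFEB and TFE3, transcription factors for lysosomal and autophagy genes, were not called (log2 -0.09 ± 0.441 and 0.31 ± 0.167), and TFEB had fewer than 18 normalized counts in every library.

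**Figure D2:**
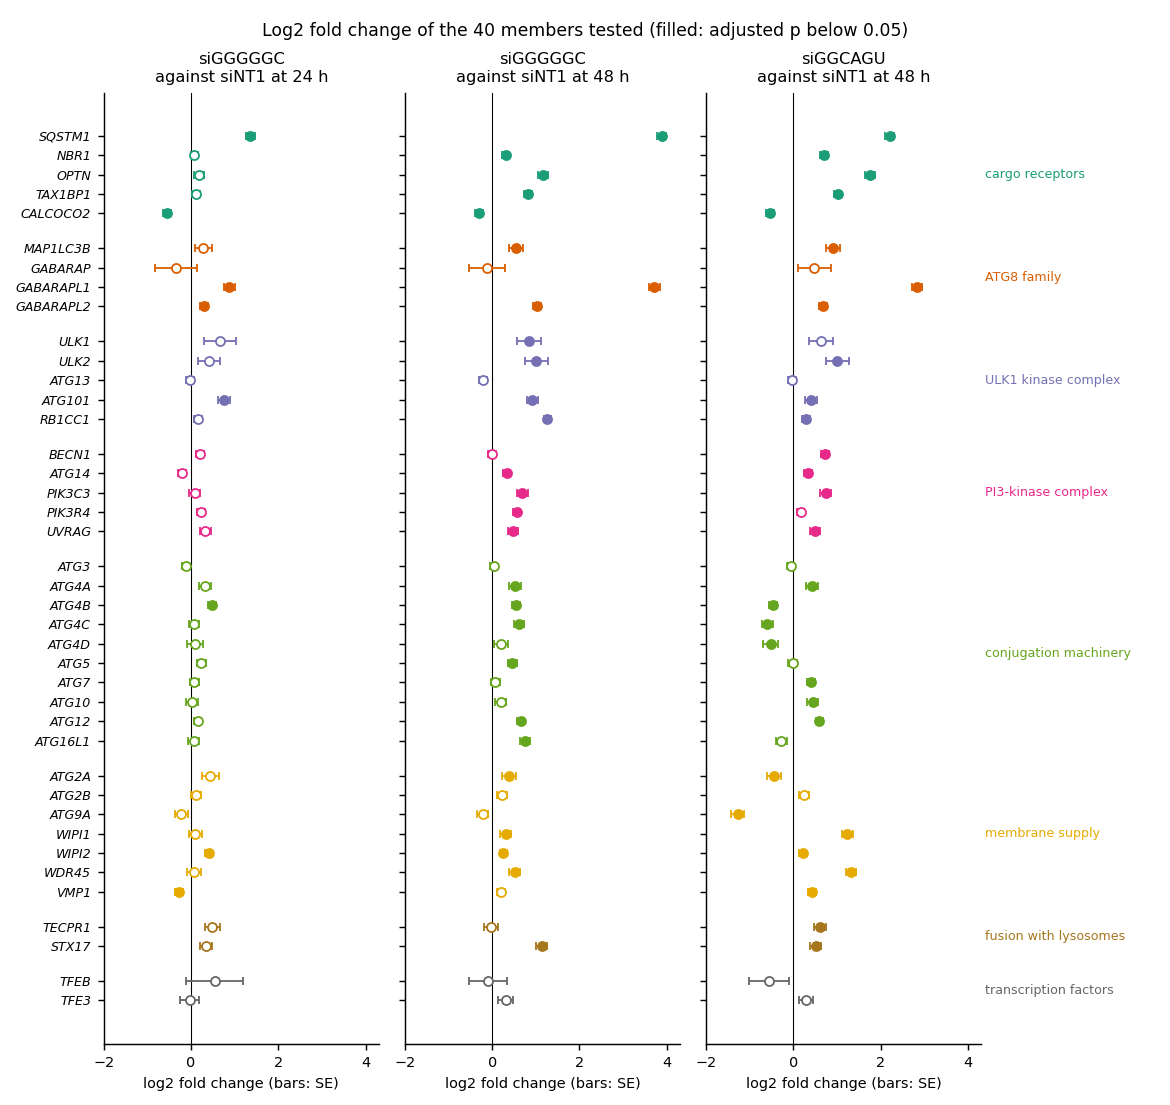
Log2 fold change (points) with its SE (bars) of the 40 autophagy genes tested, coloured and grouped by role, with siGGGGGC at 24 h (left), siGGGGGC at 48 h (middle) and siGGCAGU at 48 h (right), each against siNT1 at the same time. Filled points passed an adjusted p of 0.05. SQSTM1 and GABARAPL1 lie at 3.88 and 3.71 in the middle panel, and ATG9A lies lowest at -1.28 in the right panel. Both comparisons at 48 h use the same siNT1 libraries.

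The siRNA with the miR-34a-5p seed, siGGCAGU, was compared with the same siNT1 libraries at 48 h, so its fold changes share their controls with those above. These controls were also in view when SQSTM1 and GABARAPL1 were known to stand out. The p-values of SQSTM1 and GABARAPL1 below are therefore not independent of that choice. SQSTM1, GABARAPL1 and OPTN were the members that rose most, and ATG9A fell most. Of 40 members tested, 24 were called higher, beside 27.8% of all genes tested, and 6 lower, beside 24.9%. Past 2-fold, 7 were higher, beside 10.7%, and 1 was lower, beside 9.62%. The median log2 fold change was 0.425 over the members and 0.024 over all genes tested.

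GABARAPL1 had 3268 and 2844 normalized counts with siGGCAGU, 7.13-fold above siNT1 (log2 2.83 ± 0.122, adjusted p = 8.3e-11). SQSTM1 had 17897 and 15746 (log2 2.21 ± 0.105, adjusted p = 2.24e-10). OPTN had 4725 and 3784, 3.38-fold above siNT1 (log2 1.76 ± 0.112, adjusted p = 5.09e-09). In all 3 the siGGCAGU libraries lay above both controls. TAX1BP1 (log2 1.02 ± 0.0827, adjusted p = 6.13e-08) and NBR1 (log2 0.70 ± 0.0832, adjusted p = 4.12e-06) rose as well. In all, 4 of 5 cargo receptors were called higher, beside 27.8% of all genes tested. CALCOCO2 was the other, with 838 and 832 normalized counts (log2 -0.54 ± 0.0912, adjusted p = 0.000136).

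WIPI1 and WDR45, proteins that bind the lipid made by PIK3C3, rose past 2-fold with siGGCAGU. WIPI1 had 162 and 179 normalized counts with siNT1 and 387 and 416 with siGGCAGU (log2 1.24 ± 0.116, adjusted p = 2.89e-07). WDR45 had 154 and 138 with siNT1 and 375 and 351 with siGGCAGU (log2 1.32 ± 0.120, adjusted p = 2.21e-07). Part of the exon bases of each is shared with another gene, 28.1% on the other strand for WIPI1 and 14.4% on the same strand for WDR45. BECN1, the subunit around which the lipid kinase complex is regulated, had 1280.3 and 1288 with siNT1 and 2202 and 2021 with siGGCAGU (log2 0.72 ± 0.0931, adjusted p = 1e-05). PIK3C3, ATG14 and UVRAG were called higher with it, at log2 fold changes of 0.74, 0.33 and 0.50.

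The 6 members called lower with siGGCAGU were CALCOCO2, ATG9A, ATG2A and the proteases ATG4B, ATG4C and ATG4D. ATG9A (chr2:219219380-219229717) had 239 and 216 normalized counts with siNT1 and 91.5 and 95.2 with siGGCAGU (log2 -1.28 ± 0.142, adjusted p = 1.91e-06). Both treated libraries were below every other library in the series, although 38.8% of its exon bases are shared with an overlapping gene on the same strand. ATG4C had 387 and 462 with siNT1 and 301 and 263 with siGGCAGU (log2 -0.60 ± 0.122, adjusted p = 0.000623). ATG4B had 657 and 639 with siNT1 and 475 and 467 with siGGCAGU (log2 -0.46 ± 0.0903, adjusted p = 0.000495). In both proteases the groups did not overlap. ATG4D (log2 -0.52 ± 0.173, adjusted p = 0.0203) and ATG2A, a lipid transfer protein (log2 -0.44 ± 0.166, adjusted p = 0.0374), were called lower by edgeR but not by DESeq2 (adjusted p = 0.0689 and 0.107), whereas ATG4A, the remaining protease of the family, rose (log2 0.43 ± 0.138, adjusted p = 0.0168).

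Read against the windows printed above, 4 of these 6 members (CALCOCO2, ATG9A, ATG4B and ATG2A) held ACTGCC in the 3′ UTR, and ATG4C and ATG4D did not. Of 18 members with the word, 4 were called lower (22.2%) and 7 higher, with a median log2 fold change of 0.267. Of 22 members without it, 2 were called lower (9.09%) and 17 higher, with a median of 0.465. Over all tested genes with a 3′ UTR, 32.9% of 4544 with the word and 25.1% of 7861 without it were called lower, 1250 and 2650 were called higher, and the medians were -0.051 and 0.076. For siGGGGGC at 24 h, CALCOCO2 was the single member called lower among 16 with GCCCCC (6.25%), beside 13.1% of all tested genes with that word and 7.39% of those without. Of those 16 members 2 were called higher, with a median of 0.103. Of the 24 without the word 4 were called higher and 1 lower, with a median of 0.191. Over all tested genes with a 3′ UTR, 506 of 3923 with it and 1184 of 8482 without it were called higher (medians 0.013 and 0.04). At 48 h, as a description, 7 of the 16 were called higher and 1 lower (median 0.271). Of the 24, 19 were called higher and 0 lower (median 0.520). Of all 3923 genes with the word, 36.8% were called lower and 995 genes higher (median -0.146). Of the 8482 without it, 27.1% were called lower and 2934 genes higher (median 0.073). ATG9A, with 3 copies of GCCCCC, was not called with siGGGGGC at either time, and ATG4B, with 1 copy, was called higher at both.

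The direct comparison of siGGGGGC with siGGCAGU at 48 h uses the same siGGGGGC libraries and is also a description, with no p and nothing read from its counts. Of 40 members, 15 were called higher with siGGGGGC, beside 26.7% of all genes tested, and 8 lower, beside 27.6%. SQSTM1 differed most (log2 1.67 ± 0.103), and GABARAPL1 was 1.84-fold higher with siGGGGGC (log2 0.88 ± 0.112). ATG4C had 638 and 672 normalized counts with siGGGGGC, above both siNT1 libraries, whereas its siGGCAGU libraries were below them (log2 between the siRNAs 1.23 ± 0.122). ATG9A had 197 and 195 with siGGGGGC, which was not called against siNT1 (log2 between the siRNAs 1.06 ± 0.148). ATG4B (log2 1.01 ± 0.0909), ATG16L1 (log2 1.03 ± 0.124) and RB1CC1 (log2 0.97 ± 0.0833) were higher with siGGGGGC by similar amounts.

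The members lower with siGGGGGC than with siGGCAGU were led by WIPI1, WDR45 and BECN1. WIPI1 had 218 and 205 normalized counts with siGGGGGC (log2 between the siRNAs -0.93 ± 0.118) and WDR45 had 207 and 209 (log2 -0.80 ± 0.121). Both genes lay between the siNT1 and the siGGCAGU libraries. BECN1 had 1177 and 1370.0 with siGGGGGC, overlapping siNT1 (log2 between the siRNAs -0.73 ± 0.0943). TECPR1, a tether between autophagosomes and lysosomes, was lower as well (log2 -0.64 ± 0.153), and so was OPTN (log2 -0.60 ± 0.110).

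**Figure D3:**
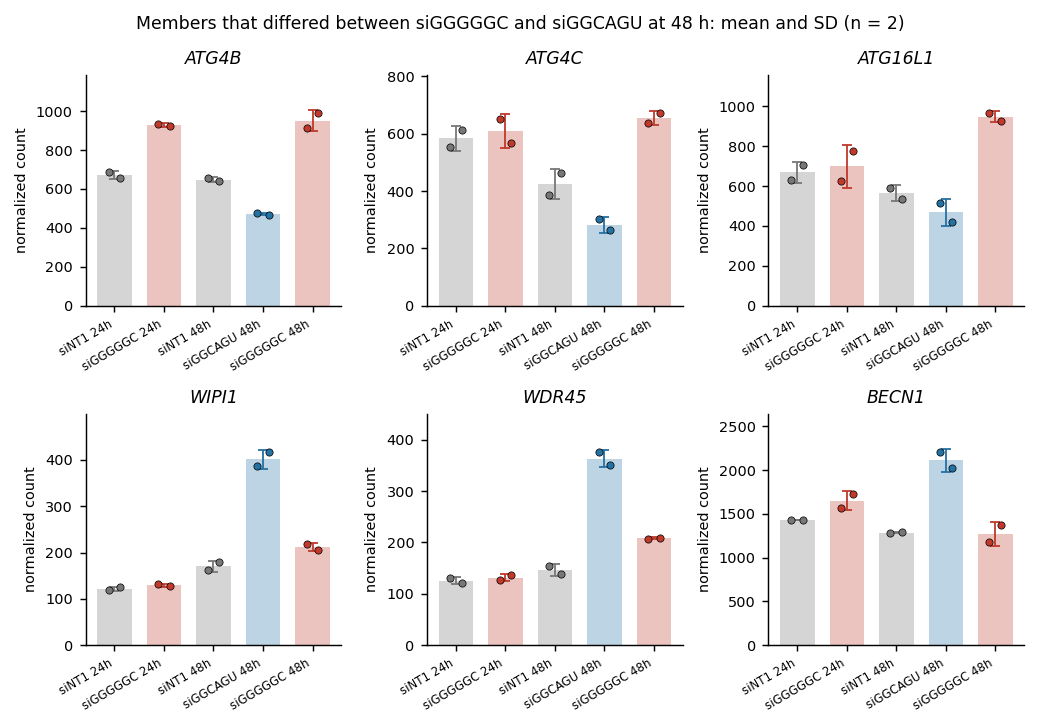
Normalized counts of 6 autophagy genes in each library (points), with the mean (bar) and SD (error bar, n = 2) per group, on linear axes that start at 0. ATG4B, ATG4C and ATG16L1 were lowest with siGGCAGU and higher with siGGGGGC at 48 h, whereas WIPI1, WDR45 and BECN1 were highest with siGGCAGU.

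The effect of siGGGGGC at 48 h minus that at 24 h was called positive in 13 of 40 members, beside 13.4% of all genes tested, and negative in 0, beside 15.2% (DESeq2 called 0 negative, and 1 was negative at an unadjusted p under 0.05). It was largest for GABARAPL1 (log2 2.83 ± 0.179) and SQSTM1 (log2 2.52 ± 0.146), followed by RB1CC1 (log2 1.11 ± 0.118) and OPTN (log2 0.98 ± 0.161). For ATG101 (log2 0.17 ± 0.191) and ATG4B (log2 0.09 ± 0.126), both called higher at 24 h, the difference between times was not called. These values use the siGGGGGC libraries at 48 h and are likewise a description.

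By the methods, the wells kept to 48 h had their medium changed at 24 h. Time since transfection and fresh medium therefore cannot be told apart. The siNT1 cells at 48 h were compared with those at 24 h. There 6 members were called higher, beside 9.37% of all genes tested, and 4 lower, beside 7.2%, with a median of 0.043 over the members and -0.004 over all genes. TFE3 (log2 0.81 ± 0.187, adjusted p = 0.0105), MAP1LC3B (log2 0.79 ± 0.175, adjusted p = 0.00907), ATG2A (log2 0.60 ± 0.175, adjusted p = 0.0314), WIPI1 (log2 0.49 ± 0.133, adjusted p = 0.0217), ATG9A (log2 0.42 ± 0.135, adjusted p = 0.0474) and ATG13 (log2 0.32 ± 0.0938, adjusted p = 0.0329) rose. ULK2 (log2 -1.10 ± 0.265, adjusted p = 0.0129), ATG4C (log2 -0.46 ± 0.117, adjusted p = 0.0175), ATG5 (log2 -0.32 ± 0.102, adjusted p = 0.0468) and ATG3, which hands ATG8 proteins to lipid (log2 -0.25 ± 0.0816, adjusted p = 0.0471), fell. These edgeR calls depended on single libraries. They were lost without either replicate of siNT1 at 24 h, and most were lost without replicate 1 of siNT1 at 48 h. With 1 library left out, the median log2 fold change over the members ran from -0.006 to 0.069. SQSTM1 (log2 0.31 ± 0.103, adjusted p = 0.0527) and GABARAPL1 (log2 0.34 ± 0.130, adjusted p = 0.085) were not called by edgeR with time in the control. DESeq2 called SQSTM1 higher (log2 0.30), as did edgeR without RN7SL2 and SNORD3A (0.30), with no filter (0.39), with a mean count of at least 50 (0.30) and with only the compared libraries (0.32), and GABARAPL1 was called with no filter (0.43) and without replicate 1 of siNT1 at 48 h (0.53). Of the 10 genes called by edgeR, DESeq2 called TFE3, MAP1LC3B, ULK2 and ATG4C.

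Of 49 further genes of the pathway on a list of receptors, regulators and machinery, 47 were tested. With siGGGGGC at 24 h 11 were called higher, beside 10.6% of all genes tested, and 4 lower, beside 8.32%. Among those with a mean of at least 100 normalized counts, the largest rises were those of KEAP1, the adaptor that SQSTM1 binds (log2 0.60 ± 0.0906, adjusted p = 0.000289), WDR45B (log2 0.59 ± 0.0843, adjusted p = 0.00018) and FKBP8, a mitophagy receptor (log2 0.47 ± 0.100, adjusted p = 0.00429). At the same minimum, AKT1S1, an inhibitory subunit of mTORC1 (log2 -0.82 ± 0.160, adjusted p = 0.00214), TOLLIP (log2 -0.76 ± 0.156, adjusted p = 0.00293) and PLEKHM1 (log2 -0.74 ± 0.161, adjusted p = 0.00436) fell most. Larger changes were called in genes below that minimum, named after their values were seen, with STBD1 (log2 1.57 ± 0.387, adjusted p = 0.0101), RETREG1 (log2 1.36 ± 0.277, adjusted p = 0.00284) and ZKSCAN3 (log2 0.81 ± 0.179, adjusted p = 0.00493) higher and MITF (log2 -1.11 ± 0.263, adjusted p = 0.00784) lower. Of the exon bases of STBD1, 88.5% are shared with FAM47E-STBD1 on the same strand. The calls of TOLLIP and FKBP8 were lost without replicate 1 of siNT1 at 24 h (log2 -0.64 and 0.42), and that of TOLLIP also without replicate 2 of siGGGGGC at 24 h (log2 -0.64).

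With siGGCAGU at 48 h 20 of the 47 were called higher, beside 27.8% of all genes tested, and 9 lower, beside 24.9%. The mitophagy receptor BNIP3L (log2 1.26 ± 0.0973, adjusted p = 3.54e-08), the receptor CCPG1 of the endoplasmic reticulum (log2 1.12 ± 0.146, adjusted p = 9.89e-06) and NFE2L2 (NRF2), the transcription factor that KEAP1 restrains (log2 1.10 ± 0.0996, adjusted p = 2.09e-07), rose most among those with a mean of at least 100 normalized counts. Below it, DDIT4 rose more (log2 1.76 ± 0.217, adjusted p = 5.9e-06) and MITF fell (log2 -1.09 ± 0.225, adjusted p = 0.000778). YKT6, a SNARE of autophagosome fusion, fell from 2848 and 2826 normalized counts with siNT1 to 766 and 1497, with wide spread between the siGGCAGU libraries (log2 -1.31 ± 0.191, adjusted p = 3.23e-05). Its log2 fold change was -0.92 without replicate 1 and -1.89 without replicate 2 of siGGCAGU. SESN2 (log2 -0.66 ± 0.136, adjusted p = 0.00075) and FOXO3 (log2 -0.50 ± 0.099, adjusted p = 0.000511) fell less. With siGGGGGC at 48 h, given as a description, 22 were called higher, beside 27.8% of all genes tested, and 11 lower, beside 27.5%. Among those with a mean of at least 100 normalized counts, DDIT4, an inhibitor of mTORC1 signalling (log2 3.28 ± 0.201), BNIP3 (log2 1.64 ± 0.0932) and NFE2L2 (log2 1.64 ± 0.100) were highest, while VAMP8, the SNARE partner of STX17 (log2 -1.03 ± 0.124), FKBP8 (log2 -0.80 ± 0.0995) and AKT1S1 (log2 -0.60 ± 0.140) were lowest. Below that mean, STBD1 stood at log2 1.81 ± 0.312 and MITF at -0.94 ± 0.225. Exon bases shared with other genes were 38.4% of NFE2L2, 40.0% of CCPG1 and 30.3% of YKT6.

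Promoter windows were searched in the RefSeq table (GRCh38.p14), in which 36 of 41 members had an entry. The letters were searched on both strands, and a gene counted when any of its windows held them. CACGTG, the E-box bound by TFEB and TFE3, was found in ATG14 and ATG3, which is 5.56% of members, beside 8.77% of all genes in the table. TGACNNNGC, the core of the antioxidant response element, was found in ATG101, CALCOCO2, MAP1LC3B and TECPR1 (11.1% beside 16.1%). TGATGNAA, a composite element of ATF4, was found in WDR45 (2.78% beside 4.46%), and the forkhead word GTAAACA in CALCOCO2 and WDR45 (5.56% beside 4.19%). The windows of SQSTM1 and GABARAPL1 held none of these letters, which says nothing of sites outside the windows.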

How the data were processed

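Total RNA of HeyA8 cells was depleted of ribosomal RNA and sequenced. The authors trimmed the reads, aligned them to hg38 with TopHat or STAR, counted exonic reads per Ensembl gene with htseq and deposited raw counts, whole numbers without normalization. The strand setting was not given in the sources used here. The authors' 4 deposited tables of comparisons hold mean counts, log2 fold changes and p-values and were not used. Counts of all 10 libraries in 5 groups of 2 were fitted together and tested by quasi-likelihood F test in edgeR 4.0.16 (R 4.3.3, TMM, filterByExpr, group as the factor, 5 residual degrees of freedom), with Benjamini-Hochberg adjustment over 16905 genes. SE is the log2 fold change divided by the square root of F. Total counts, 19781445 to 42428986, limit the precision of weakly expressed genes. The script was tested on simulated data. Gene coordinates, exon lengths and 3′ UTRs are from GENCODE release 44 (hg38).

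Members and lists were chosen with earlier results of these data known. Named were SQSTM1, GABARAPL1 and, per comparison between siRNAs, the 3 members with the largest log2 fold change each way at a mean of at least 100 normalized counts. The same rule named other pathway genes for each siRNA against siNT1, and any other member may be named with its values. Alternatives were DESeq2 1.42.0, other size factors and count filters, removal of RN7SL2 and SNORD3A (19.83% to 31.96% of counts), a replicate block, the compared libraries alone, and each library left out.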

Additional observations from a re-analysis of the deposited data

Results flagged for a closer look

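In 13 of 40 autophagy genes tested, the effect of siGGGGGC at 48 h minus that at 24 h was past the call threshold. This was the interaction term of the edgeR fit, and each of the 13 had the more positive log2 fold change at 48 h. Of all genes tested, 13.4% were called positive and 15.2% negative in that term. The difference on the log2 scale was 2.83 for GABARAPL1, 2.52 for SQSTM1, 1.11 for RB1CC1, 0.98 for OPTN, 0.79 for STX17, 0.72 for GABARAPL2, 0.71 for TAX1BP1, 0.69 for ATG16L1, 0.61 for PIK3C3, 0.56 for ATG4C, 0.53 for ATG14, 0.50 for ATG12 and 0.49 for VMP1. Against siNT1, VMP1 was at log2 -0.28 at 24 h and 0.21 (not called) at 48 h, and ATG14 was at -0.21 (not called) and 0.33. ATG4C was called lower with time in siNT1, with means of 583.9 normalized counts at 24 h and 424.5 at 48 h. With siGGGGGC its means were 610.1 at 24 h and 655.1 at 48 h, so its difference includes the fall in the control. The genes were proposed with the libraries of siGGGGGC at 48 h in view, so these values are a description and nothing is read from their number. Groups of 2 are too small for a search for outlying libraries.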

How the results depend on the processing

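Every alternative planned was run, and counts called under an alternative are given without the share of all genes called under it. With siGGGGGC at 24 h, 12 members were called higher when only the compared libraries were fitted (6 otherwise), and 1 instead of 2 was called lower with no filter on low counts, with the replicate block, and without each library in turn (1 to 1). With siGGGGGC at 48 h, 2 instead of 1 were called lower without RN7SL2 and SNORD3A, with no filter and with a mean count of at least 50, and 0 to 1 with a library left out. For siNT1 at 48 h against 24 h, DESeq2 called 3 higher (6 otherwise) and 2 lower (4 otherwise), no filter and the replicate block each left 2 lower, and leaving out a library gave 0 to 4 higher and 0 to 3 lower. Without replicate 2 of siGGGGGC at 24 h, 1 member was called lower in the effect at 48 h minus 24 h, and over all left-out libraries the count ran from 0 to 1. The median over members changed sign for siNT1 between times with upper-quartile factors (-0.005) and with a library left out (-0.006 to 0.069), and for siGGGGGC against siGGCAGU with no filter (-0.01). The cause of these changes was not tested. Leaving out all filters moved the median of all genes by 0.154 in the effect at 48 h minus 24 h. The labels give groups the same replicate numbers, but do not say that these mark a shared batch, and deviations of same-numbered libraries correlated between -0.0894 and 0.0266. The replicate block changed the other counts by at most 1.5 times. A group reduced to 1 library was assumed to vary like the others. Genes with few counts, such as TFEB, GABARAP, ULK1 and ULK2, have large standard errors at this depth.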
